A study of Tupaia belangeri with 6 samples.

Results

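Cadherins and protocadherins were described in the hippocampus of aged tree shrews (TSs; Tupaia belangeri), first as a set of levels that differ between classes of nuclei and then between TSs with Alzheimer's-like pathology (ALP) and control TSs. Members were the features whose name is CDH followed by a number, or PCDH followed by a number with or without the letters of a gene cluster (PCDHA, PCDHB or PCDHG). Copies whose name ends in li and a number, antisense features and intergenic features named after a member were left out, which gave 46 of the 83605 features. Nuclei came from flash-frozen hippocampus of 3 control TSs (titled Normal) and 3 ALP TSs (titled AD), 1 library per animal, sequenced from the 3′ end on the 10x Genomics platform. Both groups were naturally aged and carried no introduced gene, allele or drug as far as the labels and methods state. ALP TSs were those that took long to pass a pipeline maze and controls those that passed it quickly, so 1 behavioural criterion assigned the groups. The paper further reports differences between the groups in other behavioural tests, in staining for amyloid-beta, APP and phosphorylated Tau, and in brain imaging. The methods describe the controls as matched to the ALP TSs in age. The sex and the exact age of the animal behind each library are not given in the labels, and a difference between the groups cannot be told apart from one in sex.

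Cadherins are calcium-dependent adhesion molecules that span the membrane. Classical type I and type II cadherins bind like molecules on the neighbouring cell through their outer domains and reach the actin skeleton through catenins inside the cell. Protocadherins bind more weakly and lack the catenin site. The non-clustered ones are divided into delta-1 and delta-2 groups, while the clustered ones are chosen in combinations that let a neuron recognise its own branches. In the hippocampus different cadherins mark different fields and synapses, and pairs of type II cadherins on both sides of a synapse are a known example of such a code.

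The files held raw UMI counts (numbers of distinct molecules per gene and nucleus barcode). Of 37603 barcodes, 28233 nuclei passed the filters, 14387 from control and 13846 from ALP TSs, with a median of 1502.5 to 2187.5 UMIs per nucleus. The libraries shared 4 to 18 barcodes per pair. Control 2 stood apart, with 1614 kept nuclei and 53.6% of its barcodes kept against 72.2% to 84.0% in the other libraries. Clusters were named only from fixed marker genes that hold no member, with the suffix -like, and 24091 nuclei fell into 8 classes: astrocytes (Astro), endothelial cells (Endo), microglia (Micro), oligodendrocytes (Oligo), their precursors (OPCs), granule cells (Gran), pyramidal cells (Pyra) and interneurons (InN). Members and their li and antisense copies were kept out of the genes used for clustering. Intergenic features named after members could enter. Endo-like nuclei also carried mural markers, with a summed level of 1420 to 2334 CPM, and the Pyra-like nuclei of Control 3 numbered 75. The other kept nuclei were in none of these classes, and unevenly so between libraries. The largest cluster without a name, cluster 4, held 1894 nuclei, 1137 of them from Control 3. At resolution 1 a cluster of 2039 nuclei, 1152 from Control 3, was named excitatory by SLC17A7, CAMK2A and NEUROD2. The Pyra-like values of Control 3 thus leave out many nuclei that may be excitatory. Levels are CPM, the UMIs of a member per 1000000 UMIs of a class in 1 library, and are compared only within a member, since gene lengths were not used.

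The family took 0.525% to 0.942% of the UMIs of a library, and PCDH9 alone held 51.7% of the 428315 member UMIs. Of the 46 members, 29 had at least 100 UMIs in the kept nuclei, 8 had fewer and 9 had none, which allows up to 3 UMIs by counting error. Those without a UMI were CDH4, CDH11, CDH12, CDH17, PCDHA3, PCDHA8, PCDHA10, PCDHGA6 and PCDHGA7. CDH12 is known as a neuronal cadherin. The features called intergenic and named after CDH11 and CDH12 did hold reads. Over all barcodes, 18 such features beside CDH11 held 6159 UMIs, 19 beside CDH12 held 7038 and 44 beside CDH4 held 1452. Whether these reads belong to the genes was not tested. A 0 for these members is a value of the annotated feature, and the level of the gene stays unknown. The name alone does not settle it, since features beside CDH5 had means of 128 CPM in Micro-like and 6.48 CPM in Endo-like nuclei. CDH5 itself had 1.57 CPM and 108 CPM in these classes. In the kept nuclei the features beside CDH12 were highest in Gran-like nuclei in 5 of 6 libraries, and those beside CDH4 in Astro-like nuclei in 6 of 6. The features beside CDH11 were highest in Pyra-like nuclei in 4 of 6 libraries. CDH1 and PCDH7 had no feature of that name.

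Some of the classes had members that led in them in every library. Of the 29 members with at least 100 UMIs, 12 had their highest CPM in the same class in every one of the 6 libraries, which is 41.4% against 22.2% of all 19511 features with that many UMIs. Deeper features reach this more easily, and of features with at least 1000 UMIs 32.6% did, against 11 of 21 members (52.4%). The 12 members were CDH9, CDH8 and PCDH19 in Gran-like nuclei (where 2.13% of features led), PCDH15, CDH10, PCDH17 and CDH6 in OPC-like nuclei (2.33%) and PCDH9, CDH20 and CDH19 in Oligo-like nuclei (3.81%). CDH5 led in Endo-like (4.88%) and PCDH8 in Astro-like nuclei (3.34%). No member led in Micro-like (3.12%), Pyra-like (0.902%) or InN-like nuclei (1.65%) in all 6 libraries. Class levels are a description without a test, because the classes were made from the same nuclei.

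**Figure D1:**
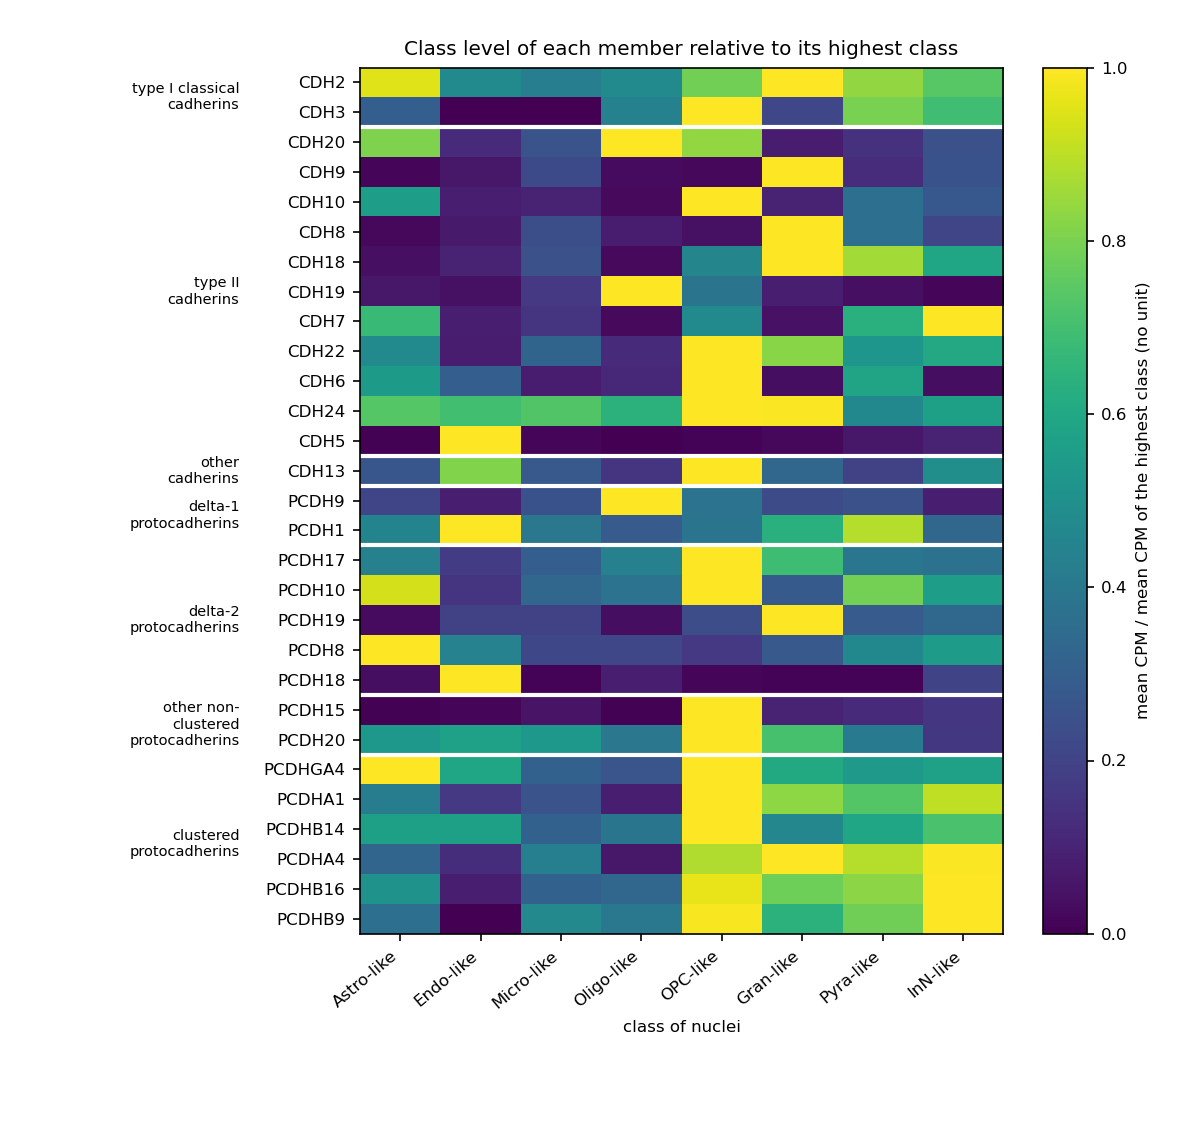
Mean CPM of the 29 members with at least 100 UMIs (rows, by subfamily) in 8 classes of nuclei (columns), each divided by the mean CPM of the member's highest class; colours have no unit. Rows such as CDH5, PCDH18 and PCDH15 have 1 bright column, and rows such as CDH20, PCDHGA4 and PCDHA4 have more than 1. CDH2 and CDH24 are bright across the classes.

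Among type I cadherins CDH2, the N-cadherin of synapses and neural progenitors, was the broad one. Its mean was 349 ± 130 CPM (SD, n = 6 libraries, as for all class levels below) in Gran-like nuclei and 149 ± 60.3 CPM in Micro-like nuclei, a ratio of 2.35 between the highest and the lowest class. Gran-like and Astro-like nuclei (332 ± 32.9 CPM) overlapped and each was higher in 3 libraries. CDH3, the P-cadherin of epithelia, had 133 UMIs and at most 2.78 ± 1.93 CPM in any class, and CDH15, a muscle cadherin, had 5 UMIs.

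Among type II cadherins CDH9 and CDH8 were highest in Gran-like nuclei. CDH9, which is known for the synapses that granule cells form on CA3 neurons, had 1362 ± 308 CPM in Gran-like nuclei. The next class, InN-like nuclei, had 341 ± 139 CPM and overlapped with Micro-like nuclei at 308 ± 150 CPM. Pyra-like nuclei followed with 172 ± 60.9 CPM, and Astro-like nuclei were lowest with 26.2 ± 8.80 CPM. In Gran-like nuclei the libraries ran from 916 to 1715 CPM, and no library of another class reached that range. CDH8 had 909 ± 110 CPM in Gran-like nuclei, 332 ± 81.4 CPM in Pyra-like nuclei and 20.8 ± 4.12 CPM in Astro-like nuclei. Micro-like nuclei (219 ± 91.0 CPM) and InN-like nuclei (189 ± 31.8 CPM) lay between and overlapped. The Micro-like levels of CDH9 and CDH8 were uneven. The small cluster 23 (179 nuclei) had 831 and 653 CPM on average, without Control 2, which had 9 nuclei there. The main cluster 7 (1434 nuclei) had far less, as given below. Reads of CDH8 may be mixed with those of an antisense-named feature, CDH8-AS-1, since the use of strand is not stated: its antisense features held 18190 UMIs over all barcodes beside 47851 of CDH8. CDH18 was spread over Gran-like (373 ± 64.2 CPM), Pyra-like (322 ± 77.8 CPM) and InN-like nuclei (221 ± 51.2 CPM), whose neighbouring ranges overlapped, and was at 10.1 ± 3.44 CPM in Oligo-like nuclei.

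Among the 8 classes CDH10 and CDH6 were highest in the precursors. CDH10 had 879 ± 139 CPM in OPC-like nuclei and 494 ± 71.3 CPM in Astro-like nuclei without overlap, and then 320 ± 86.9 CPM in Pyra-like nuclei. In Oligo-like nuclei it had 21.7 ± 11.5 CPM, 40.5 times less than in OPC-like nuclei. CDH6 had 68.4 ± 19.0 CPM in OPC-like nuclei, ahead of Pyra-like nuclei (39.9 ± 14.3 CPM) in each library although the ranges overlapped. By single clusters the order differed, since Pyra-like cluster 18 had more CDH6 than the precursors, at 168 CPM on average. CDH19, a glial cadherin also known from Schwann cell precursors, was lower in OPC-like nuclei (170 ± 37.3 CPM) than in Oligo-like nuclei (444 ± 98.1 CPM), with ranges apart, where CDH10 went the other way. CDH20 was shared by the macroglia, with 1246 ± 171 CPM in Oligo-like, 1046 ± 94.4 CPM in OPC-like and 1004 ± 105 CPM in Astro-like nuclei. These 3 levels overlapped, and Astro-like nuclei did not overlap with the next class, Micro-like nuclei at 317 ± 68.7 CPM.

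CDH7 was highest in InN-like nuclei in 5 of 6 libraries (58.8 ± 17.1 CPM) and CDH22 in OPC-like nuclei in 4 (46.7 ± 11.4 CPM). CDH24 differed least, from 19.0 ± 5.86 CPM in OPC-like to 8.87 ± 2.30 CPM in Pyra-like nuclei. CDH5, the VE-cadherin of endothelial junctions, had 108 ± 36.8 CPM in Endo-like nuclei, 10.7 times the level of the next class. That class was InN-like nuclei with 10.1 ± 7.67 CPM, and Pyra-like nuclei followed with 7.0 ± 5.02 CPM, while Oligo-like nuclei had 0.324 ± 0.499 CPM. CDH13, the T-cadherin, which is held by a lipid anchor and has no inner part, was highest in OPC-like nuclei (404 ± 48.0 CPM) in 5 libraries and second in Endo-like nuclei (327 ± 67.2 CPM). Among the remaining cadherins CDH23, the partner of PCDH15 in hair cells, had 16 UMIs, and CDH16 and CDH26 had 2 each.

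**Figure D2:**
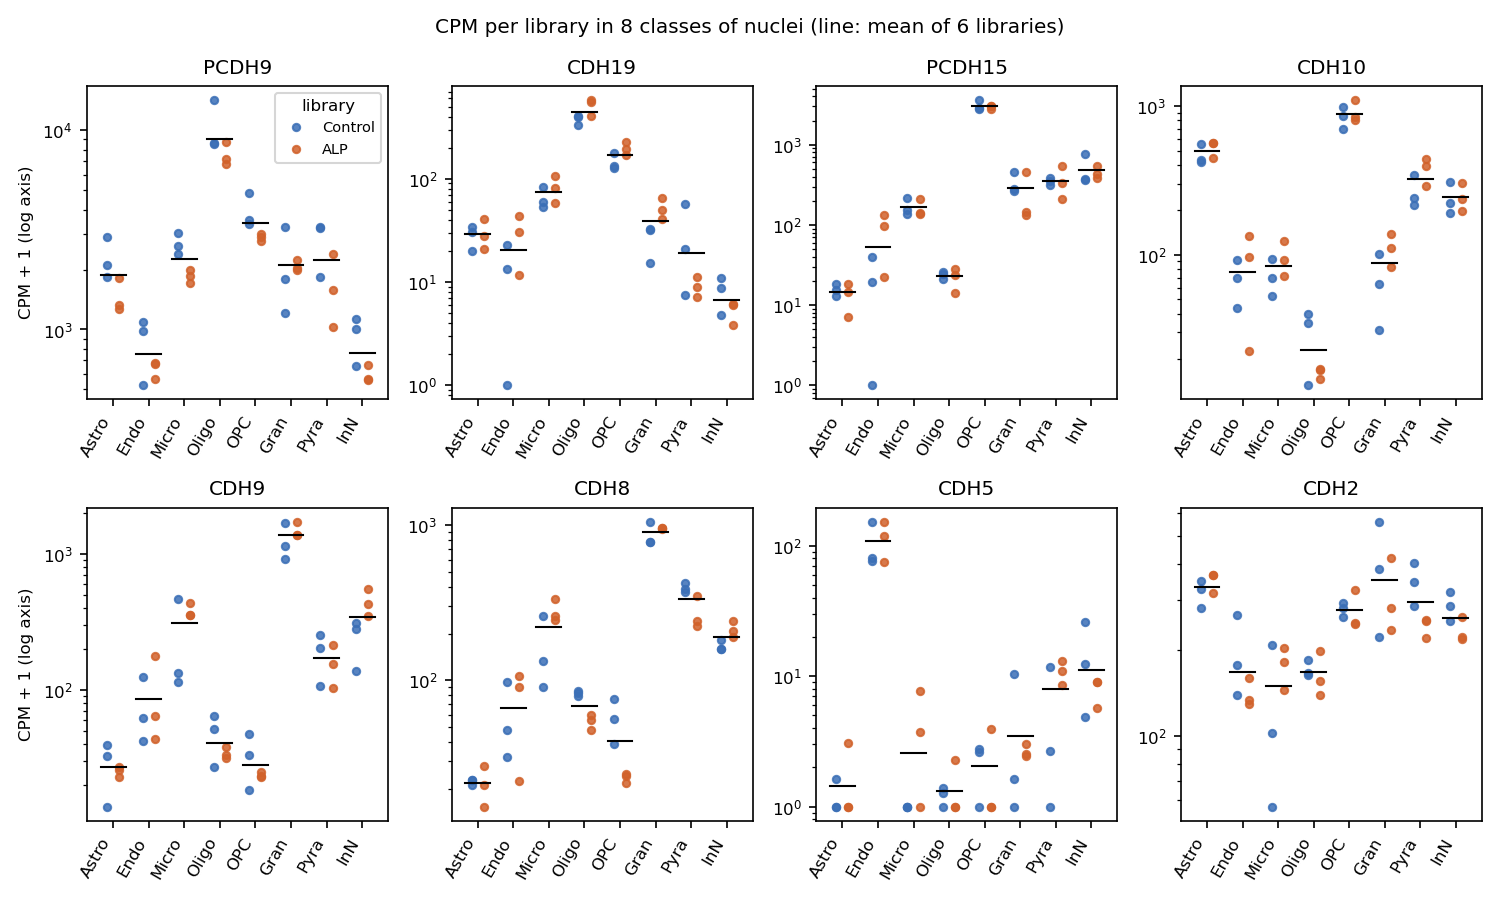
CPM plus 1 on a log axis in 8 classes of nuclei for 8 members; each point is 1 library (blue control, orange ALP) and the line is the mean of 6 libraries. PCDH9 and CDH19 peak in Oligo-like, PCDH15 and CDH10 in OPC-like, CDH9 and CDH8 in Gran-like and CDH5 in Endo-like nuclei, and CDH2 is spread over all classes.

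The protocadherins had a lead for each glial class of the oligodendrocyte lineage. PCDH9, a delta-1 protocadherin, had 9004 ± 2656 CPM in Oligo-like nuclei, with libraries from 6757 to 14157 CPM, the highest being Control 1. OPC-like nuclei had 3414 ± 760 CPM and the lowest class, Endo-like nuclei, 751 ± 231 CPM. PCDH1, the other delta-1 member, was highest in Endo-like nuclei in 4 libraries with 37.3 ± 12.3 CPM, close to 33.1 ± 12.3 CPM in Pyra-like nuclei. PCDH15, known as the tip link protein of hair cells and used by the study to mark OPCs, had 3020 ± 299 CPM in OPC-like nuclei without having been used to name them. It had 476 ± 160 CPM in InN-like nuclei and 13.5 ± 4.21 CPM in Astro-like nuclei. PCDH20 had 125 UMIs and PCDH12, an endothelial protocadherin, 11.

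Of the delta-2 protocadherins, PCDH17, known for its part at presynaptic endings, led in OPC-like nuclei (354 ± 27.1 CPM) before Gran-like nuclei (244 ± 67.9 CPM), with overlapping ranges. PCDH19, in which mutations cause a form of epilepsy, had 80.2 ± 8.05 CPM in Gran-like nuclei and 26.7 ± 5.02 CPM in InN-like nuclei, without overlap. PCDH8, whose rat form is induced by synaptic activity, had 39.1 ± 5.90 CPM in Astro-like nuclei against 21.4 ± 5.4 CPM in InN-like nuclei, again without overlap. PCDH10 was at 67.9 ± 18.5 CPM in OPC-like and 63.5 ± 8.71 CPM in Astro-like nuclei, which did not differ beyond their spread. Its antisense features held 5390 UMIs over all barcodes, more than the 4547 of PCDH10. PCDH18 had 32.0 ± 19.5 CPM in Endo-like nuclei and led there in 5 libraries, on 151 UMIs in all nuclei.

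None of the 6 clustered protocadherins with at least 100 UMIs led in 1 class in every library. PCDHGA4, with 10104 UMIs, had 276 ± 48.0 CPM in Astro-like and 275 ± 46.8 CPM in OPC-like nuclei and 72.9 ± 15.8 CPM in Oligo-like nuclei. PCDHA1 ran from 157 ± 29.9 CPM in OPC-like nuclei to 13.5 ± 5.51 CPM in Oligo-like nuclei. PCDHB14 had 99.5 ± 22.5 CPM in OPC-like and 38.8 ± 12.1 CPM in Oligo-like nuclei, and the highest class means of PCDHA4, PCDHB16 and PCDHB9 were 16.5, 12.2 and 7.83 CPM. The alpha and gamma clusters share 3′ exons, and their reads cannot be assigned to 1 member with certainty, so these values are uncertain.

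Within the neurons the members separated clusters of 1 class. There were 10 neuronal clusters with at least 150 nuclei, and each is named by genes that lead it and that are no members. CDH6 had 168 ± 51.4 CPM in Pyra-like cluster 18 (COL8A1, COL21A1, n = 5 libraries with at least 10 nuclei) against 15.1 ± 13.9 CPM in Pyra-like cluster 14 (TSHZ2, also n = 5). CDH18 had 941 ± 89.5 CPM in cluster 18 and 162 CPM on average in cluster 14, and PCDH15 had 1079 ± 332 CPM and 67.4 ± 33.5 CPM. PCDH10 was the reverse, with 130 ± 32.2 CPM in cluster 14 and 55.6 CPM in cluster 18. Pyra-like cluster 11 (PRSS16) had the highest PCDH1 mean of the neurons at 38.3 ± 10.7 CPM, and cluster 22 (POSTN, CCN3, n = 5) held CDH8 at 506 ± 117 CPM.

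Among the interneurons CDH9 was a feature of InN-like cluster 12 (SST, NPY, LHX6), with 811 ± 321 CPM against 51.1 ± 22.2 CPM in cluster 17 (LAMP5). Cluster 20 (VIP, CALB2) had CDH18 at 723 ± 133 CPM, CDH10 at 557 ± 157 CPM and PCDH15 at 1247 ± 308 CPM. Those 3 members were lower in cluster 17, at 73.2 ± 45.9 CPM, 134 ± 29.1 CPM and 348 CPM on average. CDH7 marked clusters 12 and 20 together, with 111 ± 35.9 CPM and 101 ± 26.7 CPM, and was at 5.21 CPM on average in cluster 17. CDH22 had its highest mean in cluster 17 at 58.7 ± 15.1 CPM, and CDH20 was high in clusters 12 and 17 alike (417 ± 91.5 CPM and 399 ± 213 CPM). CDH13 differed between the same clusters, with 336 ± 72.4 CPM in cluster 12 and 42.9 ± 7.53 CPM in cluster 17. The excitatory cluster 21 (B4GALNT3), named neither Gran-like nor Pyra-like, had CDH9 at 471 ± 103 CPM and CDH6 at 5.82 CPM on average.

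**Figure D3:**
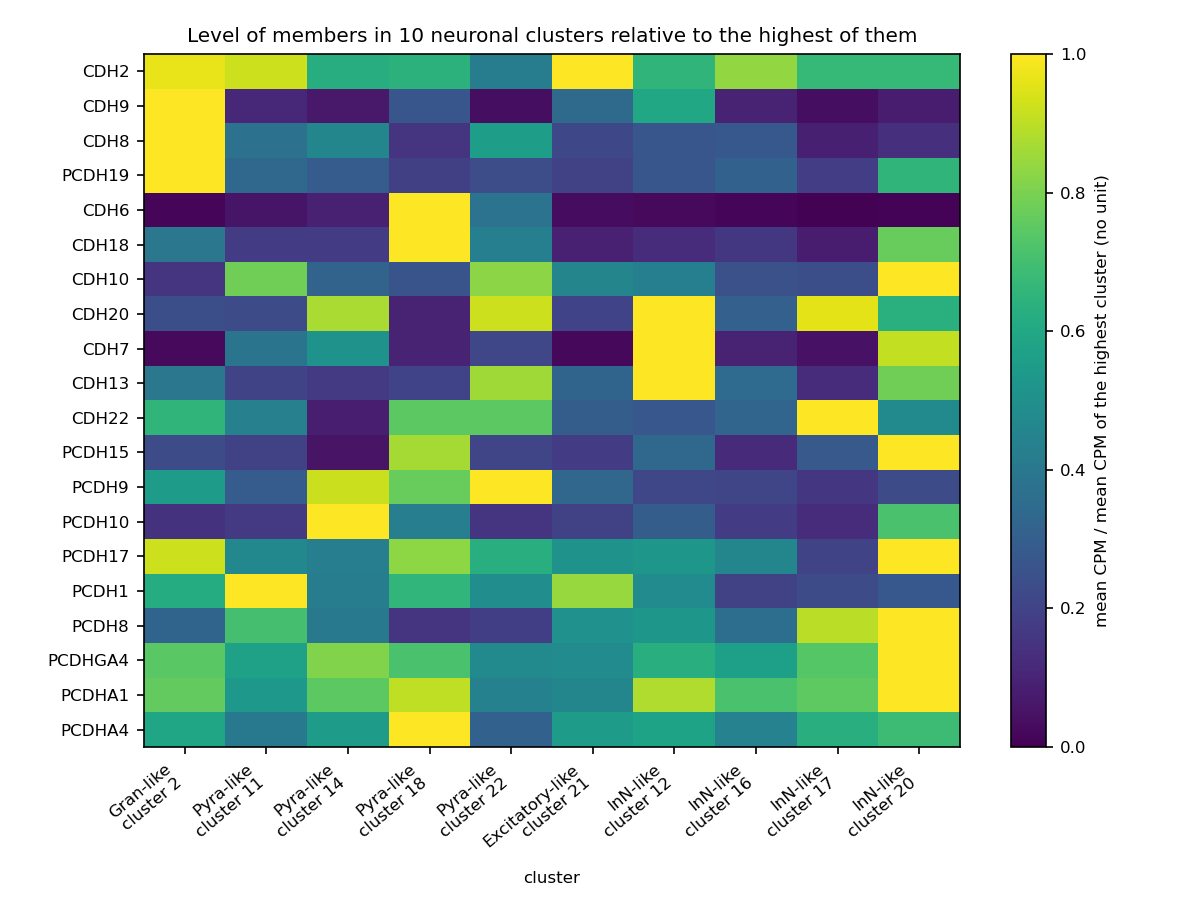
Mean CPM of 20 members (rows) in 10 neuronal clusters (columns), each divided by the member's highest mean among these clusters; colours have no unit. CDH9, CDH8 and PCDH19 are brightest in Gran-like cluster 2, CDH6 and CDH18 in Pyra-like cluster 18, and CDH7, CDH13 and CDH20 in InN-like cluster 12.

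The inner partners of the cadherins had class patterns as well. CTNNA3, an alpha-catenin, had 6081 CPM in Oligo-like nuclei and led there in 6 of 6 libraries, the class in which PCDH9, CDH20 and CDH19 were highest. CTNNA2 and CTNND2, the neural alpha-catenin and delta-catenin, led in Astro-like nuclei in each library with 2578 and 2476 CPM, and CTNNB1, the beta-catenin, in Endo-like nuclei with 168 CPM. Among other members of the superfamily FAT4 led in Gran-like nuclei in each library with 207 CPM. Over the 8 class means, the features whose log2 levels ran most like CDH9 were CNTN5 (Pearson's r = 0.986) and EPHA7 (r = 0.982), and like CDH8 it was SPTB (r = 0.987). ANXA3 was most like CDH5 (r = 0.991), TNR and LNX1 ran close to PCDH15 (r = 0.980 for both, after an antisense feature of PDE10A), and DLL1 was most like CDH19 (r = 0.979). These correlations are over 8 points from the same libraries and describe the order of classes only.

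Between ALP and control TSs no member passed the test in any class. Of 153 pairs of a member and a class tested with edgeR's quasi-likelihood test on summed counts, 0 had a Benjamini-Hochberg adjusted p below 0.05 with a log2 fold change beyond 0.25, against 1.29% of all pairs of a feature and a class. Without adjustment 26 pairs (17.0%) had a p below 0.05, against 17.1% over all features. The CPM of the 3 ALP and the 3 control libraries did not overlap in 27 pairs (17.6%), 14 higher and 13 lower in ALP TSs, against 21.0%, 10.6% and 10.4% over all features. The median log2 fold change of the 153 pairs was 0.03. The shares of members were thus close to those of all features, and p-values measure the spread between 3 libraries a group.

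By class, 0 of 21 members were called in Astro-like nuclei (0.217% of all features there), 0 of 5 in Endo-like (0.0%), 0 of 14 in Micro-like (0.46%) and 0 of 19 in Oligo-like nuclei (4.72%). The same edgeR test called 0 of 22 in OPC-like (1.6%), 0 of 21 in Gran-like (1.98%), 0 of 26 in Pyra-like (0.0%) and 0 of 25 in InN-like nuclei (0.0%). Members with an unadjusted p below 0.05 numbered 1, 0, 5, 3, 3, 5, 3 and 6 in the order above, against 17.0%, 5.46%, 14.2%, 21.5%, 15.4%, 18.2%, 14.0% and 19.7% of all features. Groups lay apart, higher and lower in ALP TSs, for 1 and 2 members in Astro-like nuclei (10.9% and 11.0% of features), 1 and 0 in Endo-like (4.5% and 5.27%) and 1 and 1 in Micro-like nuclei (8.75% and 8.07%). For Oligo-like nuclei the numbers were 2 and 2 (12.5% and 11.0%), for OPC-like 2 and 4 (9.24% and 9.39%) and for Gran-like 2 and 2 (11.1% and 11.5%). For Pyra-like nuclei they were 2 and 1 (10.3% and 8.62%) and for InN-like nuclei 3 and 1 (11.3% and 13.0%). DESeq2 called 1 member in Pyra-like nuclei (CDH20, beside 76 of 12839 features), 1 in InN-like nuclei (CDH9, beside 472 of 11929 features) and 0 in the other classes. With all nuclei summed, edgeR called 0 of 30 members (0.0% of features) and DESeq2 0 (1740 of 22749 features), with 2 below an unadjusted p of 0.05 in edgeR (23.4% of features).

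**Figure D4:**
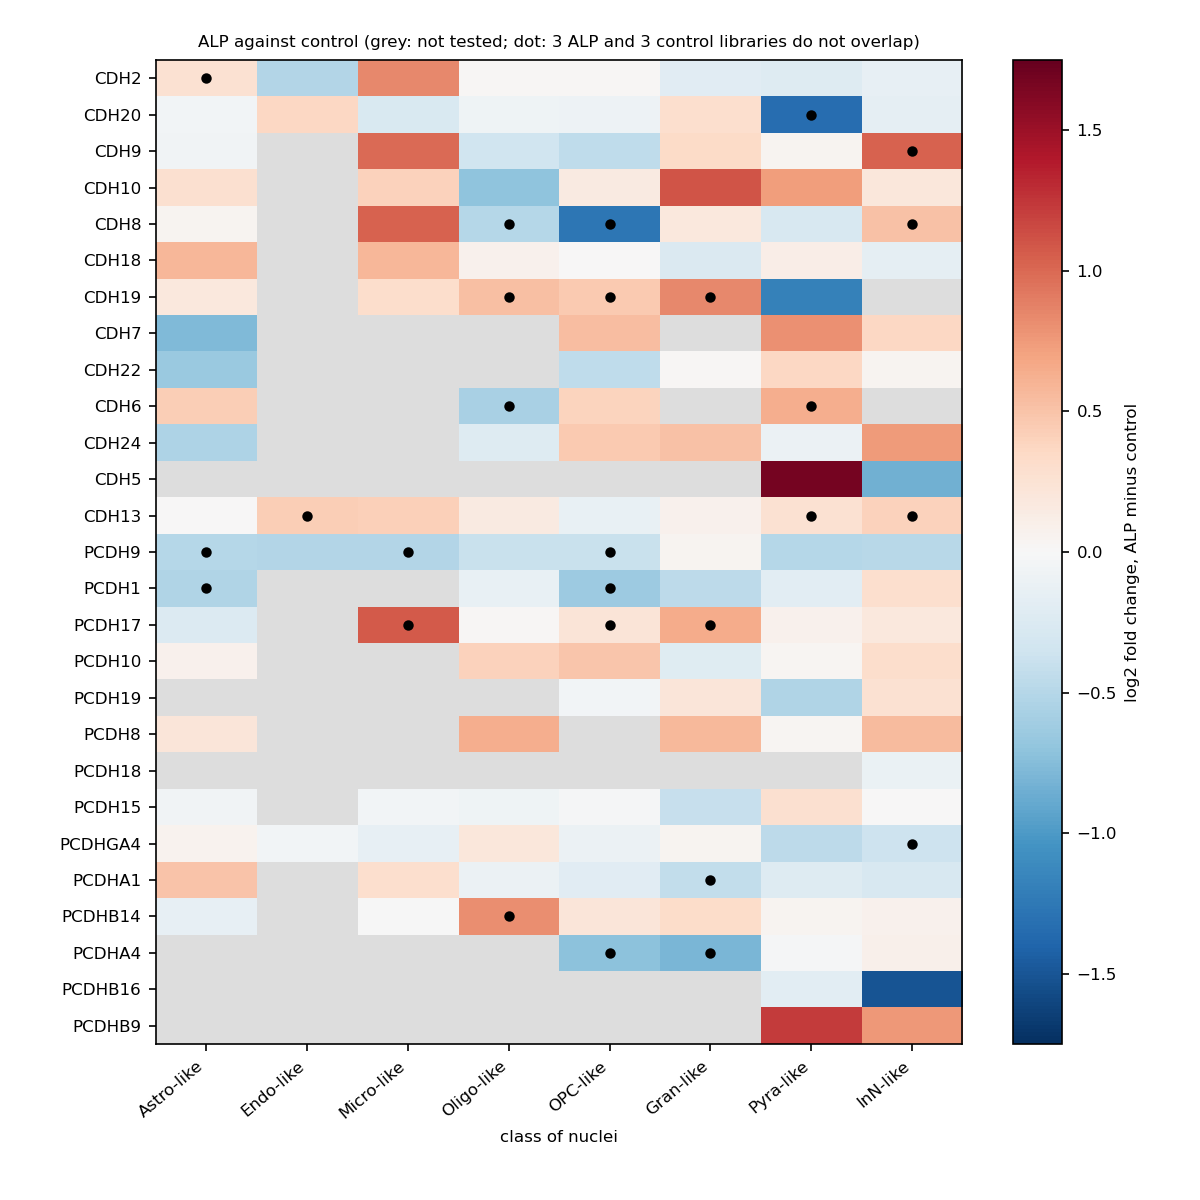
Log2 fold change of ALP against control TSs (colour; red higher and blue lower in ALP) for 27 members in 8 classes of nuclei; grey cells were not tested and dots mark pairs in which the 3 ALP and 3 control libraries do not overlap. PCDH9 is lower in 7 of 8 classes, which come from the same libraries, and CDH8 goes both ways. No cell passed the adjusted test.

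Of the type II cadherins, CDH8 had groups apart in 3 classes and in opposite directions. In InN-like nuclei it was at 148, 160 and 176 CPM in Control 1, 2 and 3 and at 227, 246 and 215 CPM in ALP 1, 2 and 3. The log2 fold change was 0.51 (SE 0.13, edgeR adjusted p = 0.0773). CPM beside a test of a class are per 1000000 UMIs of the features tested there, with the TMM scaling of that test. Such values can differ from the class levels above, which are per UMIs of all features. In OPC-like nuclei it was at 38.3, 59.5 and 79.9 CPM in the controls and at 25.9, 24.6 and 22.6 CPM in the ALP libraries. There the log2 fold change was -1.26 (SE 0.32, edgeR adjusted p = 0.0718), and without Control 1 it was called, at -1.55. In Oligo-like nuclei the controls had 77.4, 86.5 and 79.7 CPM and the ALP libraries 50.3, 55.8 and 62.9 CPM, a log2 fold change of -0.50 (SE 0.18, edgeR adjusted p = 0.13). In Gran-like nuclei, where CDH8 is highest, the groups overlapped (log2 fold change 0.18, SE 0.16). Groups were thus apart in classes where CDH8 is low or intermediate, all 3 ALP libraries lying above the controls in InN-like nuclei and below them in the other 2 classes. A test of the difference itself, added after these directions were seen, passed for InN-like against OPC-like nuclei (0.0453% of features passed) and InN-like against Oligo-like nuclei (0.293%). Its adjustment does not cover that choice, which made a pass likelier from the start. The shares beside it are over features that were not chosen in this way.

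Granule cells hold the most CDH8, so their markers are given beside these values. The 6 Gran markers summed to 932 to 1126 CPM in control and 1137 to 1234 CPM in ALP OPC-like nuclei, with UMIs for all 6, and to 632 to 849 CPM and 623 to 797 CPM in InN-like nuclei. In OPC-like nuclei they moved opposite to CDH8, and in InN-like nuclei they overlapped. The same 6 markers summed to 1556 to 1914 CPM in Gran-like nuclei but to 2079 to 3031 CPM in Oligo-like nuclei. They are thus not particular to granule cells and cannot tell how many granule cell reads a class holds. The 7 Pyra markers, from the class with the second highest CDH8, moved with it in OPC-like nuclei, with 578 to 673 CPM in control and 478 to 540 CPM in ALP libraries, and 3 of the 7 were higher in ALP TSs. They overlapped in InN-like nuclei (144 to 179 CPM and 162 to 181 CPM) and in Oligo-like nuclei (172 to 253 CPM and 191 to 215 CPM). In Pyra-like nuclei themselves the Pyra markers summed to 745 to 2021 CPM. Within Oligo-like nuclei CDH8 differed between clusters, from 146 CPM on average in cluster 8 to 27.2 CPM in cluster 5, and the clusters held different shares of the 2 groups. Cluster 3 was 5.51% of control and 38.9% of ALP Oligo-like nuclei, cluster 5 was 36.3% and 7.5%, and cluster 8 was 22.2% and 10.6%. For cluster 8 the libraries overlapped, at 12.8% to 22.7% in control and 8.09% to 14.8% in ALP TSs. In cluster 3 alone the log2 fold change of CDH8 was -1.0 (SE 0.32, edgeR adjusted p = 0.137), and in cluster 8 it was -0.12. In the InN-like clusters it was 0.59 in cluster 12, 0.33 in cluster 16, 0.75 in cluster 17 and 0.05 in cluster 20. CDH8-AS-1 had 85.1, 69.5 and 74.5 CPM in InN-like nuclei of controls and 87.7, 124 and 85.9 CPM in those of ALP TSs. In OPC-like nuclei it had 23.3, 77.5 and 42.4 CPM and 7.97, 31.2 and 32.7 CPM. The part of these markers, cluster shares and antisense reads in the CDH8 values was not tested.

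CDH9 had 292, 282 and 132 CPM in InN-like nuclei of Control 1, 2 and 3 and 602, 436 and 397 CPM in those of ALP 1, 2 and 3. All ALP libraries were above all controls, with a log2 fold change of 1.03 (SE 0.28, edgeR adjusted p = 0.0834). In cluster 12, which holds the highest CDH9 of the interneurons, the log2 fold change was 0.96 (SE 0.33, edgeR adjusted p = 0.24). This cluster made up 28.2% to 36.8% of control and 30% to 43.4% of ALP InN-like nuclei. In Gran-like nuclei, its main class, CDH9 had a log2 fold change of 0.33 (SE 0.21) with overlapping groups. CDH20 in Pyra-like nuclei had 223, 309 and 214 CPM in the controls and 61.9, 161 and 74.0 CPM in the ALP libraries, without overlap. Its log2 fold change of -1.33 (SE 0.34, edgeR adjusted p = 0.174) was the lowest of any pair with groups apart, and it was called without ALP 2, at -1.86.

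Pyra-like clusters differed in CDH20, and their shares varied between libraries. Cluster 14 held 46.7%, 34.4% and 10.7% of Pyra-like nuclei in Control 1, 2 and 3. In ALP 1, 2 and 3 it held 8.97%, 35.9% and 12.9%, so the groups overlapped in this share. LINC-CDH20-9, an intergenic feature named after CDH20, was among the leading genes of cluster 14. Within clusters, which come from the same libraries, the sign was the same. The log2 fold change was -2.04 (SE 0.34, edgeR adjusted p = 0.0708) in cluster 11, -0.65 in cluster 14, -0.47 in cluster 18 and -1.08 in cluster 22. Clusters 14 and 18 were tested without Control 3 (8 and 1 nuclei there) and cluster 22 without Control 2 (7 nuclei). In cluster 11 the controls had 141, 213 and 123 CPM and the ALP libraries 22.3, 55.4 and 26.7 CPM, so the groups were far apart there. CDH20 is highest in Oligo-like nuclei, whose markers summed to 185 to 1048 CPM in control and 133 to 244 CPM in ALP Pyra-like nuclei, on 5 of 7 markers with UMIs and with MBP and MOBP at 0. The part of these markers and of the cluster shares in the CDH20 values was not tested.

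CDH19 was higher in ALP libraries without overlap in 3 classes. In Oligo-like nuclei it had 394, 339 and 386 CPM in controls and 595, 414 and 618 CPM in ALP libraries (log2 fold change 0.53, SE 0.20, edgeR adjusted p = 0.15). The log2 fold change was 0.46 in OPC-like nuclei and 0.85 in Gran-like nuclei. It was positive in each of the 6 Oligo-like clusters, which come from the same libraries, from 0.40 to 0.60. In Pyra-like nuclei it was -1.18 (SE 0.55) with overlapping groups. In Gran-like nuclei Oligo markers moved with CDH19, with 225 to 574 CPM in control and 655 to 851 CPM in ALP libraries (5 of 7 markers with UMIs, 5 higher in ALP TSs), and their part was not tested. In OPC-like nuclei the Oligo markers overlapped, with 248 to 607 CPM and 508 to 634 CPM.

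CDH10 had a log2 fold change of 1.1 (SE 0.36, edgeR adjusted p = 0.128) in Gran-like nuclei with overlapping groups, and was called there without Control 2, at 1.40. CDH6 was apart in Pyra-like nuclei, with 18.6 to 39.4 CPM in control and 39.5 to 64.2 CPM in ALP libraries (log2 fold change 0.64, and -0.27 without the upper limit on genes per nucleus), and in Oligo-like nuclei in the other direction (log2 fold change -0.57). Its difference between these classes did not pass the same added test (0.0331% of features passed). Pyra-like cluster 18, which has the most CDH6, made up 21.5%, 9.6% and 1.33% of Pyra-like nuclei in Control 1, 2 and 3 and 26.7%, 23.7% and 14.8% in ALP 1, 2 and 3. Within cluster 18, tested without Control 3 (1 nucleus there), the log2 fold change of CDH6 was 0.40 (SE 0.31, adjusted p = 0.747 by edgeR). The part of the cluster shares in the CDH6 values was not tested. CDH13 was higher in all ALP libraries in Endo-like, Pyra-like and InN-like nuclei, with log2 fold changes of 0.43, 0.27 and 0.40. In Endo-like nuclei the controls had 425 to 436 CPM and the ALP libraries 554 to 624 CPM (SE 0.31, edgeR adjusted p = 0.963). These values count only the UMIs of the 1556 features tested there, and the class mean over all features was 327 CPM. They rest on 42 nuclei in Control 2 and on 29, 60 and 43 in ALP 1, 2 and 3, and the smallest class sum of a library was 46485 UMIs. The narrow range of the controls is thus no measure of precision. CDH2 was apart in Astro-like nuclei with 288 to 353 CPM in control and 359 to 405 CPM in ALP libraries (log2 fold change 0.26, SE 0.16, edgeR adjusted p = 0.42).

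In Micro-like nuclei CDH9, CDH8 and CDH2 had log2 fold changes of 0.99, 1.03 and 0.84, and without Control 2, which gave 44 of these nuclei, all 3 and PCDH17 were called, at 1.70, 1.38, 1.20 and 1.24. In that fit 307 of 7340 features were called, against 30 of 6517 with all libraries. CDH9 and CDH8 were high in cluster 23 (GPNMB), in which 10.6% of nuclei were marked as doublets, with 831 and 653 CPM on average against 47.9 and 44.2 CPM in the main microglial cluster 7. Cluster 23 was 6.9%, 20.5% and 4.45% of Micro-like nuclei in Control 1, 2 and 3 and 16.3%, 13.4% and 18.1% in ALP 1, 2 and 3. Its shares thus overlapped, with the highest in Control 2, and their part in these values was not tested. In cluster 7 alone the log2 fold changes were 0.68 for CDH9 (SE 0.48) and 0.59 for CDH8 (SE 0.50).

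**Figure D5:**
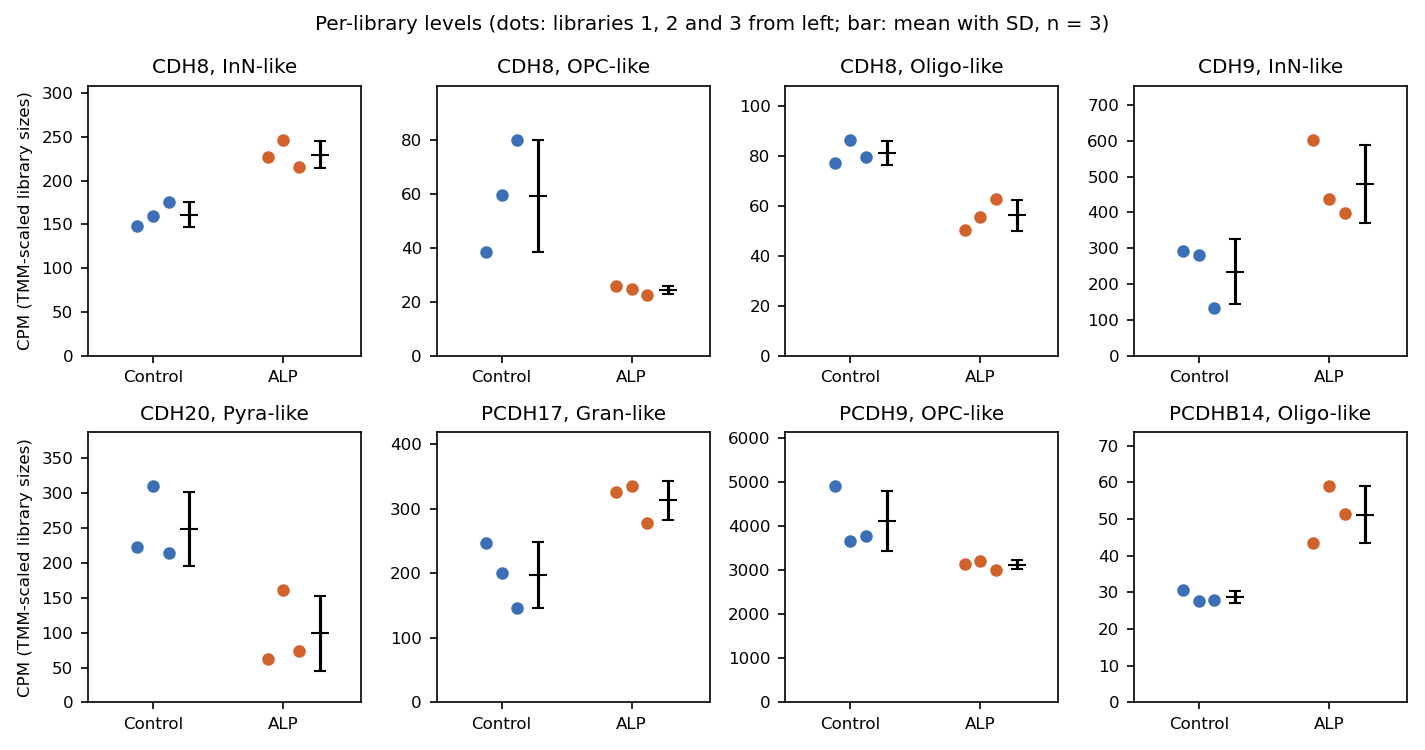
CPM in each library for 8 pairs of a member and a class, over the TMM-scaled UMIs of the features tested. Dots are libraries 1, 2 and 3 from the left (blue control, orange ALP) and bars give the mean with SD, n = 3. The groups do not overlap in these 8 pairs, which were chosen for that, and none passed the adjusted test.

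Among protocadherins PCDH9 had a negative log2 fold change in 7 of 8 classes, from -0.51 to 0.04, the exception being Gran-like nuclei. In OPC-like nuclei it had 4898, 3668 and 3765 CPM in controls and 3149, 3214 and 3013 CPM in ALP libraries (log2 fold change -0.40, SE 0.13, edgeR adjusted p = 0.168). The groups were also apart in Astro-like nuclei (log2 fold change -0.50) and Micro-like nuclei (-0.51). In Oligo-like nuclei, its main class, they overlapped, with 8415 to 13952 CPM in control and 7252 to 8917 CPM in ALP libraries. Control 1 had the highest of the 6 values in Oligo-like nuclei, at 13952 CPM. Taken by single clusters, a look added after seeing the data, PCDH9 was lower in 21 of 23 clusters. Classes and clusters come from the same 6 libraries, so their signs are not independent. How many of all features share a sign this widely was not measured. The LAMP5 interneurons of cluster 17 gave the 1 member called among 303 pairs of a member and a cluster (0.695% of feature pairs).

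In that cluster 17 PCDH9 had 1117, 658 and 765 CPM in Control 1, 2 and 3 and 349, 438 and 267 CPM in ALP 1, 2 and 3, here without TMM scaling. It fell by 1.15 on the log2 scale (SE 0.21, edgeR adjusted p = 0.03), where 1.28% of features were called. Because PCDH9 is highest in Oligo-like nuclei, Oligo markers are given beside it. Over all InN-like nuclei they summed to 68.7 to 197 CPM in control and 110 to 142 CPM in ALP libraries and overlapped. Their level in cluster 17 alone was not measured. They also overlapped in OPC-like nuclei (248 to 607 CPM in control and 508 to 634 CPM in ALP libraries) and in Astro-like nuclei (288 to 667 CPM and 282 to 417 CPM). In Micro-like nuclei they moved with PCDH9, with 1547 to 1707 CPM and 1291 to 1455 CPM, and their part was not tested.

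PCDH17 was higher in all ALP libraries in Gran-like, OPC-like and Micro-like nuclei. In Gran-like nuclei it had 248, 201 and 146 CPM in controls and 327, 335 and 278 CPM in ALP libraries (log2 fold change 0.65, SE 0.20, edgeR adjusted p = 0.113), and without Control 1 it was called, at 0.94. The log2 fold change was 0.22 in OPC-like nuclei and 1.08 in Micro-like nuclei (SE 0.28, edgeR adjusted p = 0.0989). PCDH1 was lower in all ALP libraries in Astro-like and OPC-like nuclei, with log2 fold changes of -0.53 and -0.64 at levels of 9.84 to 25.8 CPM. PCDH15, whose highest class was OPC-like nuclei, had 3619, 3046 and 3031 CPM there in controls and 3302, 3241 and 3015 CPM in ALP libraries. Its log2 fold change was -0.02 (SE 0.12) with overlapping groups.

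For the clustered protocadherins PCDHB14 came nearest to the threshold. In Oligo-like nuclei it had 30.6, 27.7 and 28.1 CPM in controls and 43.4, 58.9 and 51.4 CPM in ALP libraries (log2 fold change 0.82, SE 0.22, edgeR adjusted p = 0.0545). In the Oligo-like clusters where it was tested, the log2 fold change was 0.74 in cluster 3, 0.81 in cluster 6, 0.54 in cluster 8 and 0.88 in cluster 10. The part of the cluster shares in the PCDHB14 values was not tested. PCDHA4 was lower in all ALP libraries in OPC-like and Gran-like nuclei (log2 fold changes -0.72 and -0.80), PCDHA1 in Gran-like nuclei (-0.43) and PCDHGA4 in InN-like nuclei (-0.36). PCDHB16 and PCDHB9 were tested in 2 classes each and overlapped between groups.

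The catenins and plakophilins, the inner partners fixed as a list of 15, gave 1 call in all classes. CTNNAL1, an alpha-catenin-like protein, rose in Oligo-like nuclei from 29.3, 51.9 and 30.3 CPM in controls to 84.7, 72.2 and 91.9 CPM in ALP libraries (log2 fold change 1.33, SE 0.23, edgeR adjusted p = 0.018), 1 of 12 tested there, where 4.72% of all features were called. Its log2 fold change was 1.54 in Gran-like and 0.93 in InN-like nuclei, with groups apart and adjusted p = 0.0813 and 0.128 (edgeR). The Oligo-like clusters held different shares of the groups, cluster 3 being 5.51% of control and 38.9% of ALP Oligo-like nuclei. The part of these shares in the CTNNAL1 values was not tested. CTNNA3 missed the threshold in InN-like nuclei, with a log2 fold change of -0.77 (SE 0.14, edgeR adjusted p = 0.051). Of 25 other members of the superfamily, such as FAT, CELSR and calsyntenin genes, 0 were called by edgeR in any class, with at most 8 tested in a class and at most 2 below an unadjusted p of 0.05 in 1 class.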

How the data were processed

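Nuclei of 6 hippocampi were measured, 3 control and 3 ALP libraries. The authors deposited raw UMI counts per feature and barcode, made with Cell Ranger (version 3.1.0 in the submitters' processing notes and 6.1.2 in the matrix headers). The genome build and the use of strand are not given in the sources used here. The members and lists were chosen with earlier results of these data known. RefSeq symbols of TupChi_1.0 matched 31 of 46 members and were used for names only.

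Nuclei with more than 200 and fewer than 2500 genes and under 5% mitochondrial UMIs were kept. Counts were scaled to 10000 UMIs, and 2000 variable genes were taken without the members and their li and antisense copies. These gave 30 principal components for Leiden clusters at resolution 2 with 20 neighbours (scanpy 1.11.5, leidenalg 0.10.2). A name needed 3 fixed markers, each in at least 3% of nuclei and 1.5 times the other nuclei. Doublets were marked at 0.8% per 1000 barcodes and kept (1.43% to 5.10% of nuclei per library), and a cluster with over 15% of them was not named. The libraries held 4159545 to 15412799 UMIs in kept nuclei.

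Counts were summed per library and class where a library had at least 10 nuclei and compared between the groups in R 4.3.3 with edgeR 4.0.16 (TMM, filterByExpr with a minimum count of 10, quasi-likelihood test of the 2 groups). A call was a Benjamini-Hochberg adjusted p under 0.05 over all features with a log2 fold change beyond 0.25. On simulated counts, 69% to 99% of genes changed 4-fold and 16% to 43% of those changed 2-fold were recovered over the 8 classes. Alternatives were DESeq2 1.42.0, upper-quartile factors, no filter, a block for the replicate number, leaving out libraries one at a time, no upper limit on genes, doublets left out, members among the variable genes and resolution 1. Tests of single clusters and of the difference between classes were added after seeing the data. Levels of classes, clusters, markers and antisense features are CPM over all UMIs without TMM. CPM beside a test of a class are over the UMIs of the features that passed the filter, with TMM.

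Named members were those highest in a class or neuronal cluster by the ratio to the next one, those with the largest differences and groups apart in a class, and a fixed list of well-known members. Others in the text were named to complete a subfamily.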

Additional observations from a re-analysis of the deposited data

Results flagged for a closer look

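CDH8 stood out because its difference between ALP and control TSs was not the same in all classes. The pairs of classes were chosen after the opposite directions had been seen, and the difference was then tested in 1 edgeR fit over both classes with the library as a block. The adjustment runs over the features of that fit and does not cover the choice of member and classes, so the adjusted p below are too small by an unknown amount. Choosing pairs with groups apart in opposite directions makes a large difference likely from the start. The shares of features that passed are over features not chosen in this way, so they do not show how rare such a pass is. The log2 fold change of ALP against control was higher by 1.75 (SE 0.27, adjusted p = 0.00368) in InN-like than in OPC-like nuclei, where 0.0453% of features passed. Between InN-like and Oligo-like nuclei it was higher by 1.06 (SE 0.23, adjusted p = 0.0341), where 0.293% of features passed. CDH6, the other member with groups apart in opposite directions, did not pass between Pyra-like and Oligo-like nuclei, with a difference of 1.20 (SE 0.50, edgeR adjusted p = 0.502).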

How the results depend on the processing

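Counts of called members were 0 in every class with edgeR and depended on settings. DESeq2 called 1 in InN-like nuclei (CDH9) and 1 in the Pyra-like class (CDH20). Without the filter on low counts, 2 were called in Micro-like, 3 in InN-like, 2 in Pyra-like, 1 in Gran-like and 1 in OPC-like nuclei and 1 over all nuclei. Those fits called 232 of 32339 features in Micro-like, 1432 of 41092 in InN-like, 521 of 40401 in Pyra-like, 763 of 39386 in Gran-like and 547 of 37459 in OPC-like nuclei and 3386 of 54978 over all nuclei. Without the upper limit on genes, 1 was called in Micro-like (PCDH9) and 1 in Gran-like nuclei (PCDH17), and no Endo-like class was formed, so it gave no value. With each library left out in turn the count ran from 0 to 4 in Micro-like nuclei, from 0 to 1 in InN-like, Pyra-like, Astro-like, Gran-like and OPC-like nuclei and over all nuclei, and stayed at 0 in Endo-like and Oligo-like nuclei. Calls not named above came without ALP 2 (CDH7 in Astro-like nuclei) and without Control 2 (PCDH9 in InN-like nuclei, CDH7 over all nuclei). Members ahead in 1 class numbered 12 to 15 under all alternatives. The direction was followed in 24 pairs that had been chosen for groups apart, which makes a turn unlikely from the start. Of 335 alternatives for these pairs, 1 turned: CDH6 in Pyra-like nuclei had a log2 fold change of -0.27 without the upper limit on genes. The causes were not tested.

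The replicate numbers did not pair the samples (correlation of deviations -0.335 to 0.0890), and with the number as a block 0 members were called in each class. Calls over all features then went from 552 to 282 in Oligo-like, 141 to 1 in OPC-like, 204 to 0 in Gran-like, 30 to 0 in Micro-like, 22 to 6 in Astro-like and 0 to 1 in InN-like nuclei. DESeq2 called 472 features in InN-like, 219 in Astro-like and 76 in Pyra-like nuclei against 0, 22 and 0 by edgeR. Depth limits members with few UMIs, and changes of 2-fold were mostly not recovered in simulated counts.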
